A study of Mus musculus with 2 samples.

Results

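The genes described here run DNA replication and the cell cycle, and the measurement is where an antibody against the phosphatase PHLPP1 placed CUT&Tag signal on them in mouse alveolar macrophages. They were chosen by symbol among protein-coding genes, namely Mcm2 to Mcm10, Orc1 to Orc6, every Cdk with a number only, the cyclins Ccna, Ccnb, Ccnd and Ccne, every symbol that begins with Cdkn, every E2f, Cdc6, Cdc20, every Cdc25, Cdt1, Rb1, Rbl1, Rbl2, Pcna and Mki67. This rule gave 72 of 21887 protein-coding genes on the 19 autosomes, X and Y, and it used no measured value. Cdkn2aip and Cdkn2aipnl, whose products bind the ARF protein of Cdkn2a or resemble one that does, came in through the prefix alone.

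One library came from alveolar macrophages that received IL-4 (interleukin-4, 20 ng/ml, 4 h), and the other from untreated alveolar macrophages. Per the labels, all cells were wild-type and were taken from lavage fluid of mouse lungs, and the number of mice was not given. CUT&Tag uses an antibody to guide a transposase that tags the DNA next to the bound protein, and the tagged DNA is sequenced. With 1 library per group and no replicates, the groups could not be tested against each other, and every difference below describes these 2 libraries. A library pools many cells, so PHLPP1 in more cells and more PHLPP1 per cell cannot be told apart, and a control antibody was not analysed here.

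A cell prepares for DNA synthesis by licensing its origins. The origin recognition complex binds the DNA, Cdc6 and Cdt1 join it, and together they load the ring of Mcm2 to Mcm7 that later unwinds the double helix. Cyclins switch on cyclin-dependent kinases, the Cdkn inhibitors hold those kinases back, and the pocket proteins Rb1, Rbl1 and Rbl2 restrain the E2F transcription factors, which drive many genes of S phase. Alveolar macrophages keep their numbers in the adult lung largely by dividing in place, and IL-4 can drive tissue macrophages to divide.

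The IL-4 list held 226476 regions and the untreated list 165968, of which 313 and 196 lay over the cell cycle genes or within 1 kb of them. The deposited fold of a region is the peak caller's ratio of the fragment pileup at its summit to the background estimated in the same library. The constant part of that background was 15.9 fragments in the IL-4 library and 13.9 in the untreated library, and the median fold over all regions was 2.19 and 2.15. All intervals given are 95% intervals that cover counting error only.

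Nearly every gene of the cell cycle engine carried PHLPP1 signal at its start, and more did so in the IL-4 library. A start region here is a deposited region within 1 kb of a listed transcription start. For the 13 genes with no entry in the start table, either end of the gene was used: Ccna2, Ccnd1, Ccnd2, Ccne2, Cdc25c, Cdk5, Cdk17, Cdk19, Cdkn1c, E2f4, E2f5, Mcm4 and Rb1. A start region was present at 71 of 72 genes in the IL-4 library (98.6%, exact Clopper-Pearson interval 92.5 to 100), against 66.8% of all protein-coding genes. In the untreated library it was present at 62 genes (86.1%, 75.9 to 93.1), against 55.1% of all genes. Of the 72 genes, 9 had a start region in the IL-4 library alone (12.5%, 5.88 to 22.4), against 14.7% of all genes. None had a start region in the untreated library alone, against 2.99% of all genes, and the exact interval of 0 of 72 reaches 4.99%. Ccnb3 was the only gene of the 72 with no start region in either library.

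Stricter limits kept the cell cycle genes above all genes in each library. With a −log10 q of at least 5, 63 genes had a start region in the IL-4 library (87.5%) and 47 in the untreated library (65.3%), against 50.6% and 32.8% of all genes. With a fold of at least 3, 57 genes had one in the IL-4 library (79.2%) and 41 in the untreated library (56.9%), against 40.2% and 26.2% of all genes. The share with a start region in the IL-4 library alone was below that of all genes when any region counted, but above it under these limits. It was 16 genes with a −log10 q of at least 5 (22.2%, 13.3 to 33.6), against 18.4% of all genes, and 17 genes with a fold of at least 3 (23.6%, 14.4 to 35.1), against 14.3%.

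**Figure D1:**
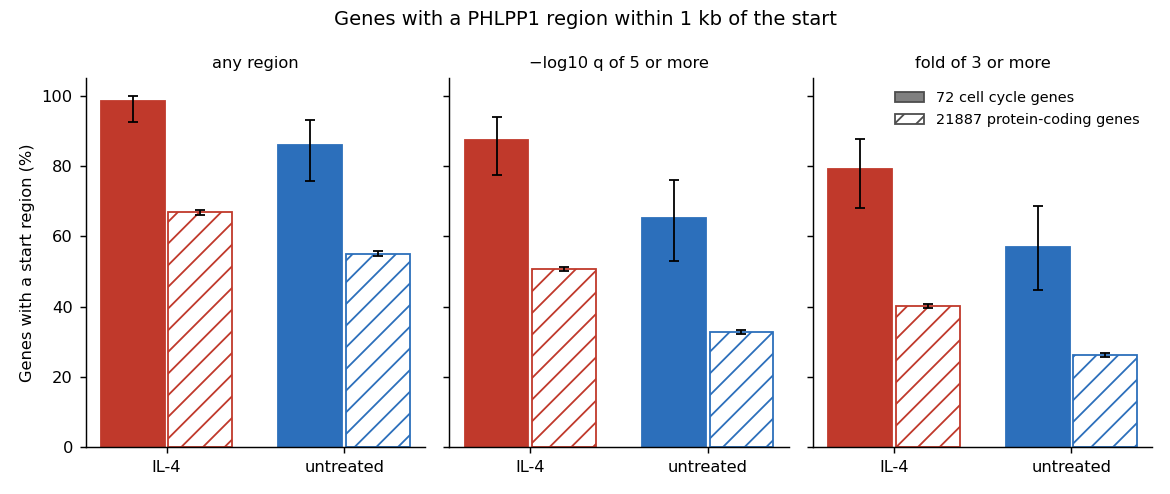
Share of genes (y axis, percent) with a PHLPP1 region within 1 kb of the start in the IL-4 (red) and untreated (blue) library, for 72 cell cycle genes (filled) and 21887 protein-coding genes (hatched), with exact 95% counting intervals. From left to right the panels count any region, those with a −log10 q of at least 5 and those with a fold of at least 3; the filled bars stand above the hatched ones in each, at 98.6% and 86.1% against 66.8% and 55.1% in the left panel.

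The promoters of these genes are rich in G and C, and start regions were more frequent at such promoters in general. Of the 72 genes, 59 matched an entry of the RefSeq promoter table (GRCm38.p6), which gives 250 bases before and 50 after the start for 17492 genes. The median GC content of these 300 bases was 64.7% in the cell cycle genes, with 25 CpG sites, and 57.3% in all genes, with 15 CpG sites. Among promoters with 60 to 70% GC, 25 of 25 cell cycle genes had a start region in the IL-4 library and 22 in the untreated library, against 85.1% and 76.0% of all genes of that class. With 70% GC or more, 14 of 14 cell cycle genes had one in the IL-4 library and 13 in the untreated library, against 83.0% and 74.0%. With 50 to 60% GC the counts were 17 of 18 and 13 of 18, against 73.5% and 56.9%. In the 40 to 50% class, 2 of 2 cell cycle genes had one in each library, against 40.6% and 30.1%. The gap to all genes was smaller in the 3 classes from 50% GC upwards than without regard to GC, and larger in the 40 to 50% class with its 2 genes. The part of base composition in the result was not tested further.

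The 250 bases before the start are shown for 7 genes picked by signal or by motif content. Each is read 5′ to 3′ along the gene from the RefSeq promoter table of GRCm38.p6. Capitals mark 3 short motifs known from cell cycle promoters, on either strand. They are the E2F motif (TTTCCCGC, TTTGGCGC, TTTCGCGC or TTTGCCGC), the CHR element (TTTGAA or TTCGAA), which recruits a repressor complex to genes of mitosis, and the CCAAT box, bound by NF-Y and read as ATTGG on the other strand. Mcm9 (chr10:53629958-53630207, minus strand) had the highest start fold in the IL-4 library. Mcm6 (chr1:128359706-128359955, minus strand) and Cdk1 (chr10:69352913-69353162, minus strand) held the most E2F and CHR motifs of these 7. Cdk2 (chr10:128705052-128705301, minus strand), Cdc20 (chr4:118437344-118437593, minus strand) and Ccnb2 (chr9:70421555-70421804, minus strand) had a start region in the IL-4 library alone. Ccnb3 (chrX:7041620-7041869, minus strand) had none.
Mcm9: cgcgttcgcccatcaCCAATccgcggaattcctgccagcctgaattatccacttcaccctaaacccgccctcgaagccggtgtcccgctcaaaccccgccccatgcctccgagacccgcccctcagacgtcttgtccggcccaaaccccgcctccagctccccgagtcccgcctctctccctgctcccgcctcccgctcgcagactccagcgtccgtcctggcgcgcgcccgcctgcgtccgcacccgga
Mcm6: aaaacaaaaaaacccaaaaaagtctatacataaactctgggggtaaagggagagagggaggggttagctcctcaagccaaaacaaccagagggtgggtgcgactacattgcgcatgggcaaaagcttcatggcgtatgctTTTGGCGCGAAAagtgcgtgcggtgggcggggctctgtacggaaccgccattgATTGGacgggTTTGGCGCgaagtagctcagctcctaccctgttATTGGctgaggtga
Cdk1: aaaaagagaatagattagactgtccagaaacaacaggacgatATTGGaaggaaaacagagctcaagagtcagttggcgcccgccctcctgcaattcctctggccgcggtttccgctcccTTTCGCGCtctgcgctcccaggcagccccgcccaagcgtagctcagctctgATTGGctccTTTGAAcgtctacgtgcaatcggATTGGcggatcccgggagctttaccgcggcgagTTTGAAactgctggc
Cdk2: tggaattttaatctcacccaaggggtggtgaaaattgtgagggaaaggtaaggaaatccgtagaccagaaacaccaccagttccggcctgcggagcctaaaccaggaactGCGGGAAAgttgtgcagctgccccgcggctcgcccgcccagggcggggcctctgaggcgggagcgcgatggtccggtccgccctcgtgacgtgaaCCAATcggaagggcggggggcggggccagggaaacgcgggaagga
Cdc20: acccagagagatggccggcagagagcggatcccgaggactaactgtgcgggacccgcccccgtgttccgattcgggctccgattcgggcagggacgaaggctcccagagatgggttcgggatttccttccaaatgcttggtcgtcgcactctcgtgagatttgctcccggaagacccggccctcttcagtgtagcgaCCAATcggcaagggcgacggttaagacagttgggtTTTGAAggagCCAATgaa
Ccnb2: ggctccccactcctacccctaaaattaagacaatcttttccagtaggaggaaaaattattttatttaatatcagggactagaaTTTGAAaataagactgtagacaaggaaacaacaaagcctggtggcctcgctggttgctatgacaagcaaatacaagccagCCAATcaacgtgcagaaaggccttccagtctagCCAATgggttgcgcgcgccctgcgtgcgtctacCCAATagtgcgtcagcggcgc
Ccnb3: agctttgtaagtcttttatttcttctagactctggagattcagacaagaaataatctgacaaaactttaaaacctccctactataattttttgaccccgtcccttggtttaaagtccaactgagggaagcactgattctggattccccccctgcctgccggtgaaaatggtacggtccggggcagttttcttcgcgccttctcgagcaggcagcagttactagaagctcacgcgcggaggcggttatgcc

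In Mcm6, a pair of overlapping E2F motifs on opposite strands, TTTGGCGC and GCGCGAAA, spanned the bases from 110 to 99 before the start, and another TTTGGCGC lay 47 to 40 bases before it. Cdk1 held the E2F motif TTTCGCGC 131 to 124 bases before the start and CHR elements 71 to 66 and 15 to 10 bases before it. Cdc20 held a CHR element 18 to 13 bases before the start between CCAAT boxes, and Ccnb2 held 3 CCAAT boxes 87 to 17 bases before it. These 4 promoters hold the motifs for which S phase and mitosis genes are known. Mcm9 held a CCAAT box alone of these 3 motifs, and Ccnb3 held none in the printed window. Among genes not shown, Cdk13 (fold 8.66 in the IL-4 library) and E2f6 (start region in the IL-4 library alone) also held none of the 3.

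The E2F motif was far more frequent in promoters of these genes than in promoters in general. It occurred within the 300 bases of 17 of 59 cell cycle genes (28.8%, 17.8 to 42.1), against 3.29% of all 17492 promoters. Its holders were Cdc25a, Cdc6, Cdk1, Cdk2, Cdkn2a, Cdt1, E2f2, E2f3, E2f7, Mcm3, Mcm5, Mcm6, Mcm7, Mcm8, Orc1, Orc3 and Rbl1. The CHR element occurred in 14 (23.7%, against 20.2% of all promoters), the CCAAT box in 37 (62.7%, against 42.3%) and the GC box GGGCGG in 50 (84.7%, against 49.2%). The ETS motif CCGGAAG occurred in 17 (28.8%, against 12.9%) and the cAMP response element TGACGTCA in 3 (5.08%, against 2.54%). The TATA box TATAAA occurred in 2 (3.39%, against 14.8%), the AP-1 motif TGANTCA in 2 (3.39%, against 8.12%) and the FOXO motif GTAAACA in 2 (3.39%, against 3.45%). A STAT6 motif, TTC and GAA with 4 bases between them, also occurred in 2, Cdkn3 and Orc1 (3.39%, against 7.37%).

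Cell cycle genes with and without the E2F motif carried similar start signal. With it, 17 of 17 had a start region in the IL-4 library and 15 in the untreated library, with median folds of 4.46 and 3.55. Without it, 41 of 42 had one in the IL-4 library and 35 in the untreated library, with median folds of 4.54 and 3.82. Over all genes the shares were 86.1% in the IL-4 library and 73.7% in the untreated library with the motif, and 65.5% and 54.5% without it. A match of letters is a description and does not show that a factor binds there.

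Start regions of the cell cycle genes had a higher median fold than those of genes in general, by an amount that varied between GC classes. The strongest start region of a cell cycle gene had a median fold of 4.46 in the IL-4 library (n = 71 genes, range 1.96 to 11.3), against 3.50 over all genes with a start region. In the untreated library the median was 3.65 (n = 62, 1.74 to 8.78), against 2.88. The median cell cycle gene stood at percentile 65.6 of genes with a start region in the IL-4 library and at percentile 67.7 in the untreated library. The upper 25% of such genes held 23 of the 71 (32.4%, 21.8 to 44.5) and 22 of the 62 (35.5%, 23.7 to 48.7), and the upper 10% held 10 (14.1%, 6.97 to 24.4) and 7 (11.3%, 4.66 to 21.9). Among promoters with 60 to 70% GC the median folds were 4.86 (IL-4) and 3.49 (untreated), against 4.39 and 3.35 over all such genes. With 70% GC or more they were 4.62 and 4.63, against 3.91 and 3.11. With 50 to 60% GC they were 3.57 and 3.55, against 3.37 and 2.87. The 2 genes with 40 to 50% GC had medians of 6.18 and 4.07, against 2.61 and 2.41. The gap was thus not smaller in every class than without regard to GC. Without regard to GC, the strongest start regions of cell cycle genes had median widths of 571 bp (IL-4) and 528 bp (untreated). Over all genes these were 559 and 476 bp.

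The summits lay close to the start and mostly just upstream of it. Among genes with a listed start, the summit was within 200 bp of it at 40 of 58 cell cycle genes in the IL-4 library (69.0%) and at 38 of 50 in the untreated library (76.0%), against 65.1% and 64.7% of all genes. It lay upstream at 40 of 58 (69.0%) and 37 of 50 (74.0%), against 60% and 59.3%. The median summit position, negative upstream, was -76.0 bp in the IL-4 library and -83.5 bp in the untreated library, against -41.0 and -44.0 bp over all genes. Where the strongest regions of both libraries overlapped, the summits were a median of 44.0 bp apart (n = 57), against 47.0 bp over all genes.

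**Figure D2:**
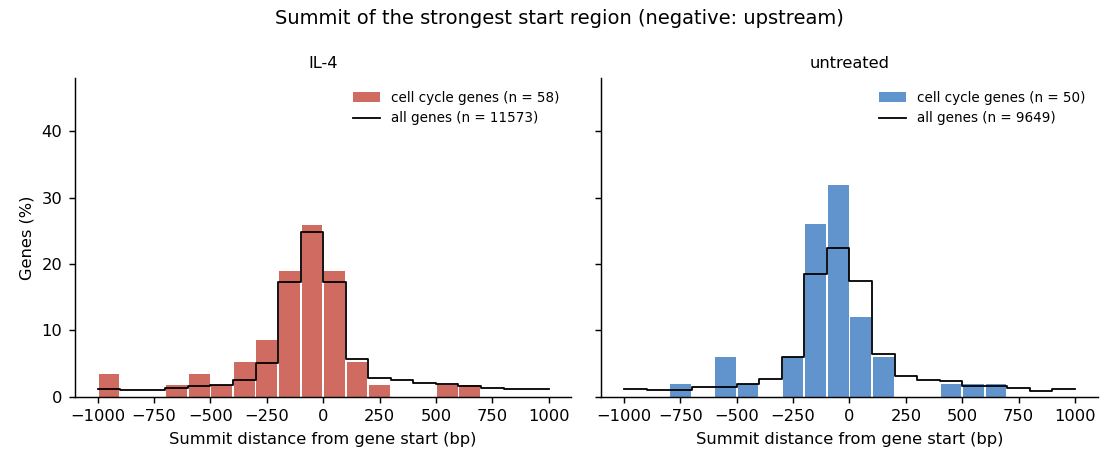
Distance from the gene start to the summit of the strongest start region (x axis, bp, negative upstream, bins of 100 bp) as a percent of genes (y axis), in the IL-4 (left) and untreated (right) library, with cell cycle genes as bars and all genes as a line. Most bars fall within 200 bp of the start, 69.0% of cell cycle genes in the IL-4 library and 76.0% in the untreated library.

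The genes that license origins were all covered in both libraries, with 6 of 6 Orc genes, Cdc6, Cdt1 and all of Mcm2 to Mcm7. Orc4, a subunit of the origin recognition complex, led its group with a fold of 10.4 in the IL-4 library (chromosome 2, 48948825 to 48950289, pileup of 175 fragments) and 5.63 in the untreated library (83 fragments). Orc5, another subunit, had folds of 7.17 and 3.49 in the IL-4 and untreated libraries, Orc2 had 6.70 and 4.22, and Orc3 had 6.11 and 4.02. Orc6 had 5.99 in the IL-4 library and 5.16 in the untreated library. Orc1, whose protein level is known to vary through the cycle in human cells, stood apart with 3.02 in the IL-4 library and 3.55 in the untreated library. The IL-4 start region of Orc1 also reached Prpf38a, that of Orc3 Rars2, that of Orc4 Mbd5 and that of Orc6 Vps35, so those signals cannot be given to a single gene.

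Cdt1, the loader that brings the Mcm ring to origins, had a fold of 5.74 in the IL-4 library (chromosome 8, 122567155 to 122568167, 138 fragments) and 3.96 in the untreated library (58 fragments). Cdc6, the ATPase that works beside it, had 4.21 in the IL-4 library and 2.75 in the untreated library. Both were higher in the IL-4 library, as were most genes in general. Of 11411 genes with a start region in both libraries, 1339 had a lower fold in the IL-4 library (11.7%).

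The 6 genes of the replicative helicase had start folds of 3.57 to 7.59 in the IL-4 library and 2.23 to 5.03 in the untreated library, with medians of 5.85 and 3.69. Mcm4 led with 7.59 (chromosome 16, 15637117 to 15638114, 127 fragments) and 5.03 (74 fragments). Its IL-4 region also reached Prkdc, which codes for a DNA repair kinase. Mcm7 had 6.11 in the IL-4 library and 3.49 in the untreated library, Mcm6 had 6.05 and 3.62, Mcm3 had 5.66 and 3.92, and Mcm5 had 5.54 and 3.75. Mcm2 was lowest with 3.57 and 2.23. Each of these genes had the higher fold in the IL-4 library, as most genes in general did, and the Mcm7 region also reached Ap4m1.

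Mcm9, which acts with Mcm8 in DNA repair rather than in loading, had the highest start fold of all 72 genes in the IL-4 library. It was 11.3 there (chromosome 10, 53629283 to 53630371, 202 fragments) and 8.0 in the untreated library (119 fragments), rank 63 of 14628 and rank 238 of 12065 among genes with a start region. Mcm10, which helps to activate the helicase, had 4.33 and 2.48, and Mcm8 had 4.15 and 2.48, with the Mcm8 region reaching Trmt6.

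**Figure D3:**
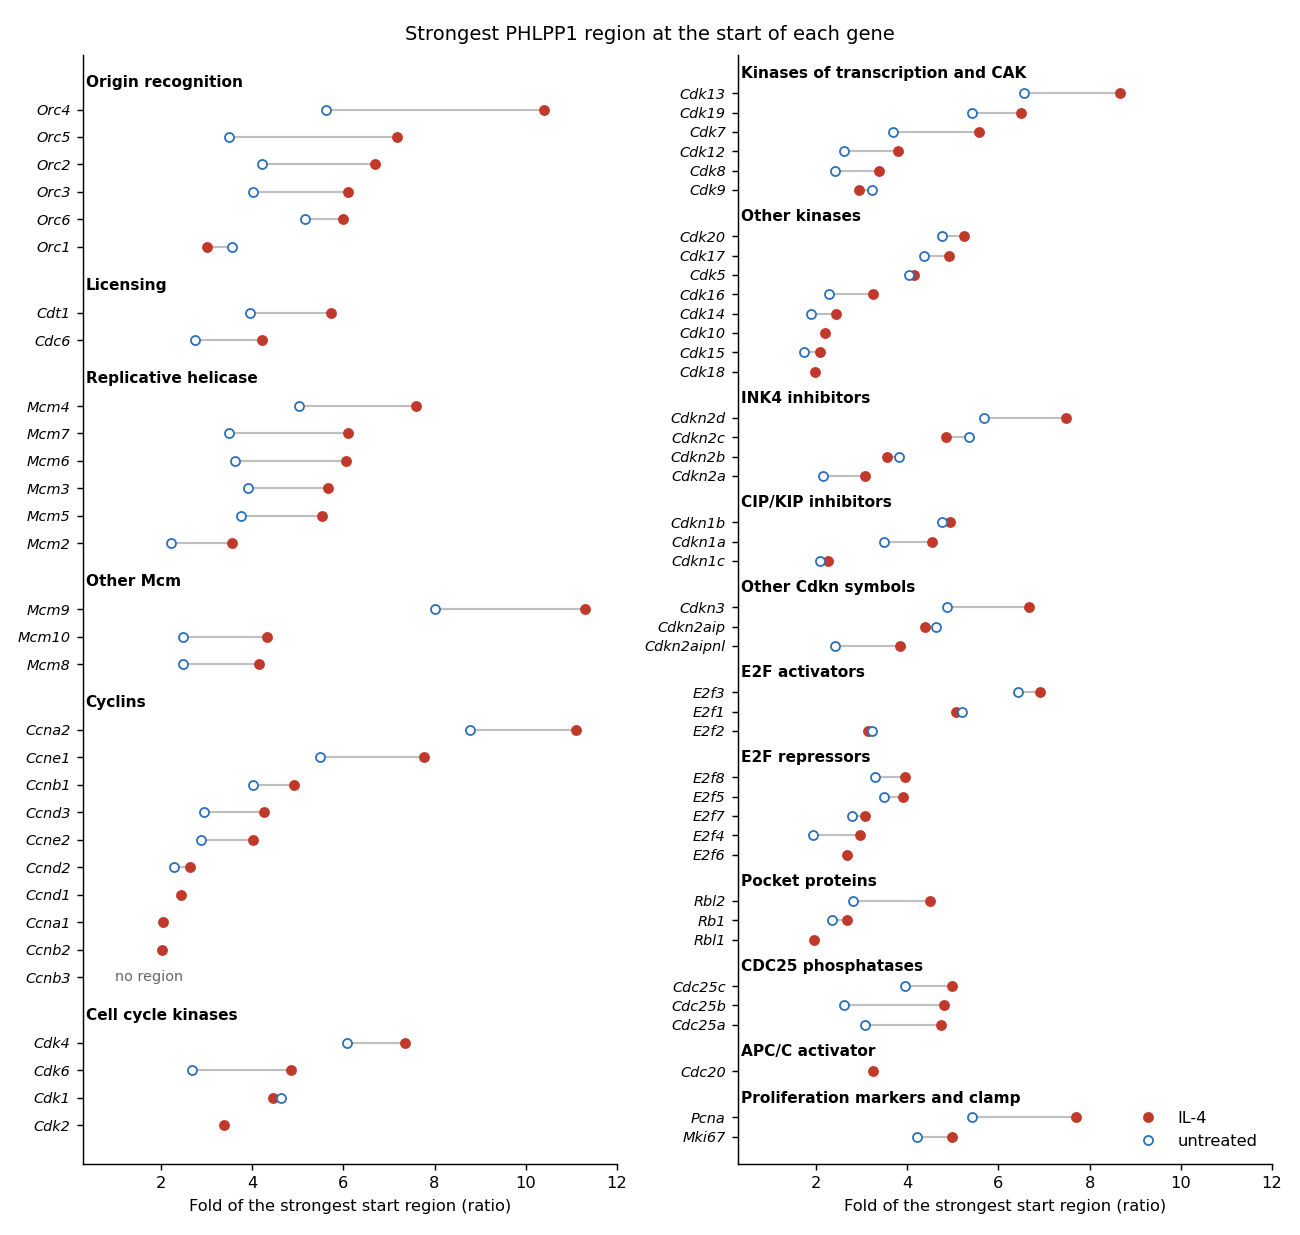
Fold of the strongest start region (x axis, ratio to the background of the same library) for each of the 72 genes, grouped by role, in the IL-4 (filled red) and untreated (open blue) library, joined by a line where both have a region. Mcm9 and Ccna2 are highest, at 11.3 and 11.1 in the IL-4 library, 9 genes have a red point alone, and Ccnb3 has no point. The blue point is to the right at 8 of 62 genes with both points (12.9%), against 11.7% of 11411 genes in general.

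Among the cyclins, signal was strong at Ccna2 and Ccne1 and weak or absent at several others. Ccna2, the cyclin of S phase and mitosis in somatic cells, had a fold of 11.1 in the IL-4 library (chromosome 3, 36571779 to 36572537, 200 fragments) and 8.78 in the untreated library (130 fragments), the highest untreated fold of the 72 genes. Ccne1, a cyclin that starts S phase, had 7.76 and 5.50, and its relative Ccne2 had 4.03 and 2.88. Ccnb1, the main mitotic cyclin, had 4.92 in the IL-4 library and 4.02 in the untreated library. The D cyclins, which link growth signals to the cycle, had 4.27 and 2.95 at Ccnd3, 2.64 and 2.28 at Ccnd2 (at regions that did not overlap), and 2.45 at Ccnd1 in the IL-4 library alone. Ccna1, a cyclin known mainly from the male germ line, and Ccnb2, a mitotic cyclin, had 2.04 and 2.02 in the IL-4 library alone. Ccnb3, known from germ cells, lies on the X chromosome, and its nearest regions were 39.2 kb from the start in the IL-4 library (fold 1.78) and 42.8 kb from it in the untreated library (2.75). Start regions were scarce on X in general, at 27.7% of 966 genes in the IL-4 library and 17.3% in the untreated library, against 69.5% and 57.5% of autosomal genes.

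Of the kinases that drive the cycle, Cdk4, a partner of D cyclins, was strongest. Its fold was 7.35 in the IL-4 library (chromosome 10, 127063098 to 127063950, 158 fragments) and 6.08 in the untreated library (95 fragments). Cdk6, the other partner of D cyclins, had 4.86 and 2.68. Cdk1, the kinase of mitosis, had 4.46 in the IL-4 library and 4.64 in the untreated library. Cdk2, the partner of E and A cyclins, had 3.38 in the IL-4 library and no start region in the untreated library.

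The kinases of transcription and Cdk7, which also activates other Cdks, had a start region at 6 of 6 genes in both libraries. Cdk13, a kinase of RNA polymerase elongation, led with 8.66 in the IL-4 library (chromosome 13, 17804622 to 17805776, 164 fragments) and 6.57 in the untreated library (97 fragments). Cdk19, of the Mediator kinase module, had 6.49 and 5.43, Cdk7 had 5.57 and 3.69, Cdk12 had 3.79 and 2.62, and Cdk8 had 3.38 and 2.41. Cdk9, the kinase of the elongation factor P-TEFb, had 2.95 in the IL-4 library and 3.23 in the untreated library, and was the only gene of the 72 with a fold of at least 3 in the untreated library alone, against 0.343% of all genes. The local background at its IL-4 region was 1.52 times the constant background, and its pileup was 73 fragments in the IL-4 library and 55 in the untreated library. The 8 remaining Cdk genes had lower start folds, with a median of 2.85 over 8 genes in the IL-4 library and 3.16 over 6 genes in the untreated library. These medians cover different genes, since Cdk10 (2.19) and Cdk18 (1.97) had a start region in the IL-4 library alone. At each of the 6 genes with one in both libraries, the fold was higher in the IL-4 library, as at most genes in general. Cdk20 led them with 5.24 (chromosome 13, 64432122 to 64433216, 105 fragments) and 4.76 (70 fragments).

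The inhibitors were all covered in both libraries. Of the INK4 genes, which block Cdk4 and Cdk6, Cdkn2d led with 7.48 in the IL-4 library (chromosome 9, 21291031 to 21291657, 237 fragments) and 5.69 in the untreated library (118 fragments). Its pileup was the highest of the 71 strongest start regions of the IL-4 library. The local background there was 1.94 times the constant one in the IL-4 library and 1.43 times in the untreated library. Cdkn2c had 4.86 and 5.36, and Cdkn2b had 3.56 and 3.82, both lower in the IL-4 library. Cdkn2a, which codes for the inhibitor p16 and the p53 activator ARF, had 3.08 in the IL-4 library and 2.15 in the untreated library. Of the CIP/KIP genes, which act on several cyclin and Cdk pairs, Cdkn1b led with 4.93 (chromosome 6, 134919593 to 134920856, 89 fragments) and 4.76 (70 fragments). Cdkn1a, a target of p53, had 4.54 and 3.49 at a region whose IL-4 summit lay 1645 bp after the nearest listed start, and the imprinted gene Cdkn1c had 2.26 and 2.08 at regions that did not overlap. Of the other Cdkn symbols, Cdkn3, a phosphatase of Cdks, led with 6.67 (chromosome 14, 46760225 to 46760894, 129 fragments) and 4.88 (72 fragments).

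Among the E2F factors, the activators had stronger start regions than the repressors, with median folds of 5.07 and 3.07 in the IL-4 library and 5.21 and 3.04 in the untreated library. E2f3, an activator, had 6.92 in the IL-4 library (chromosome 13, 29985980 to 29986839, 202 fragments) and 6.42 in the untreated library (139 fragments). E2f1 had 5.07 and 5.21, and E2f2 had 3.15 and 3.22, both over a local IL-4 background above the constant one, by 1.22 and 1.42 times. The factors that mainly repress had folds of 2.67 to 3.95 at 5 of 5 genes in the IL-4 library and 1.94 to 3.49 at 4 of 5 in the untreated library. The 1.94 is at E2f4, one of the genes with no listed start, where the IL-4 region lay at the lower end and the untreated region past the upper end of the gene. E2f8 led these repressors with 3.95 (chromosome 7, 48882241 to 48882884, 75 fragments) and 3.29 (48 fragments), at regions that did not overlap. Rbl2, the pocket protein of resting cells, had 4.51 (chromosome 8, 91069839 to 91070329, 75 fragments) and 2.82 (41 fragments), also at regions that did not overlap. Rb1, the retinoblastoma gene, had 2.67 in the IL-4 library and 2.35 in the untreated library, and Rbl1 had 1.96 in the IL-4 library alone.

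The CDC25 phosphatases, which remove inhibitory phosphate from Cdks, were covered at 3 of 3 genes in both libraries. Cdc25c had 4.98 (chromosome 18, 34751472 to 34751837, 83 fragments) and 3.96 (58 fragments), Cdc25b had 4.80 and 2.62, and Cdc25a had 4.74 and 3.08. Cdc20, which activates the anaphase-promoting complex, had 3.26 in the IL-4 library and no start region in the untreated library. Pcna, the sliding clamp of DNA polymerases, had 7.71 (chromosome 2, 132252563 to 132253519, 129 fragments) and 5.43 (80 fragments) at a region that also reached Cds2. Mki67, whose protein marks dividing cells, had 4.98 and 4.22. In all, 10 of the 71 strongest IL-4 start regions touched another protein-coding gene as well (14.1%). The same share over all genes was not counted.

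The 9 genes with a start region in the IL-4 library alone had weak regions there, with folds of 1.96 to 3.38. The strongest was Cdk2 (chromosome 10, 128704437 to 128705308, fold 3.38, −log10 q 12.2, 56 fragments), a region that also reached Pmel. Cdc20 followed (chromosome 4, 118437221 to 118437628, fold 3.26, −log10 q 11.1, 54 fragments). E2f6, a repressor of the E2F family, came next (chromosome 12, 16810791 to 16811229, fold 2.67, −log10 q 6.34, 44 fragments). Ccnd1 (chromosome 7, 144939588 to 144939829, fold 2.45, −log10 q 5.91) was the last of the 9 with a −log10 q of at least 5. The other 5 regions would therefore be lost under that limit.
Cdk10, known in human cells as a partner of cyclin M, had a fold of 2.19 (chromosome 8, 123224637 to 123225005, −log10 q 3.26). Ccna1 (chromosome 3, 55054271 to 55054674) had 2.04 with a −log10 q of 2.89, and Ccnb2 (chromosome 9, 70421398 to 70421765) had 2.02 with 2.33. Cdk18 (chromosome 1, 132139616 to 132139875) had 1.97 with 2.72, and Rbl1 (chromosome 2, 157204521 to 157204912) had 1.96 with 2.05.

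How far these genes were from untreated signal differed widely. The nearest untreated region lay 1.25 kb from the start of Cdk18 (fold 2.12) and 2.07 kb from an end of Ccnd1 (2.68), in both cases with a higher fold than the IL-4 start region itself. It lay 3.52 kb from Ccna1 (1.95), 5.13 kb from E2f6 (1.94), 6.05 kb from Cdc20 (2.15) and 8.13 kb from Cdk2 (5.50). It lay 11.2 kb from Cdk10 (2.21), 20.9 kb from Rbl1 (2.62) and 81.6 kb from Ccnb2 (4.02). Ccnb2 was thus the farthest of the 9 from untreated signal. Of the 10 cell cycle genes without an untreated start region, the IL-4 library had one at 9 (90%, 55.5 to 99.7), against 3217 of 9822 such genes in general (32.8%, 31.8 to 33.7). Since 71 of the 72 cell cycle genes had a start region in the IL-4 library, the 9 of 10 restates that count and is no separate result. The same 9 were 12.5% of the 72 genes, against 14.7% of all genes. Base composition was not held equal in either comparison.

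At start regions present in both libraries, the cell cycle genes had nearly the same ratio between the libraries as genes in general. The summit pileup was divided by the constant background of its own library, and the value in the IL-4 library was divided by that in the untreated library. This ratio had a median of 1.44 over 57 cell cycle genes (quartiles 1.22 and 1.59, range 0.843 to 2.09), against 1.41 over 10564 genes (1.23 and 1.61). It was below 1 at 5 of the 57 (8.77%) and at 709 of the 10564 (6.71%). The shift towards the IL-4 library was thus shared by start regions across the genome, and whether it reflects the treatment or the library cannot be told apart with 1 library a group. Among genes with an untreated fold of at least 3 the medians were 1.39 (n = 40) and 1.43 (n = 5666).

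The highest of these ratios were at Cdt1, Orc5 and Mcm2 and the lowest at Orc1 and a pair of INK4 inhibitors. Cdt1 had the highest ratio, 2.09 (exact binomial interval 1.52 to 2.89), followed by Orc5 at 2.06 (1.48 to 2.92) and Mcm2 at 1.97 (1.29 to 3.06). Ccnd3 had 1.94 (1.34 to 2.85), and Orc4 (1.42 to 2.43) and Cdc25b (1.24 to 2.79) both had 1.85. The local background at the IL-4 region was 1.46 times the constant one at Cdt1, 1.26 times at Mcm2 and 1.36 times at Ccnd3, and the ratio of deposited folds there was 1.45, 1.60 and 1.45. On deposited folds the order was led by Orc5 at 2.06, Orc4 at 1.85 and Cdc25b at 1.84. The lowest ratios were 0.843 at Orc1 (0.560 to 1.27), 0.899 at Cdkn2c (0.651 to 1.24) and 0.924 at Cdkn2b (0.630 to 1.36), followed by 0.931 at Cdk1 (0.679 to 1.28) and 0.941 at Cdkn2aip (0.667 to 1.33). None of these 5 intervals excluded 1. The interval lay above the median of all genes at 3 of the 57, Cdt1, Orc4 and Orc5 (5.26%, against 3.11% of all genes), and below it at 5, Cdk1, Cdkn2aip, Cdkn2b, Cdkn2c and Orc1 (8.77%, against 3.26%).
By role, the median ratio was 1.63 over Mcm2 to Mcm7 (range 1.42 to 1.97) and 1.55 over the Orc genes (0.843 to 2.06). It was 1.27 over the activating E2F genes (1.16 to 1.36) and 1.18 over the INK4 genes (0.899 to 1.76). Orc1 was the lowest of its group and Cdkn2d the highest of its own. On deposited folds the ratio was 1.32 at Cdkn2d and 1.44 at Cdkn2a, so the place of Cdkn2d depended on the scaling. Among the activating E2F genes it was 0.974 at E2f1, 0.979 at E2f2 and 1.08 at E2f3 on deposited folds. The direction at E2f1 and E2f2 thus also depended on the scaling. No difference between roles was tested.

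**Figure D4:**
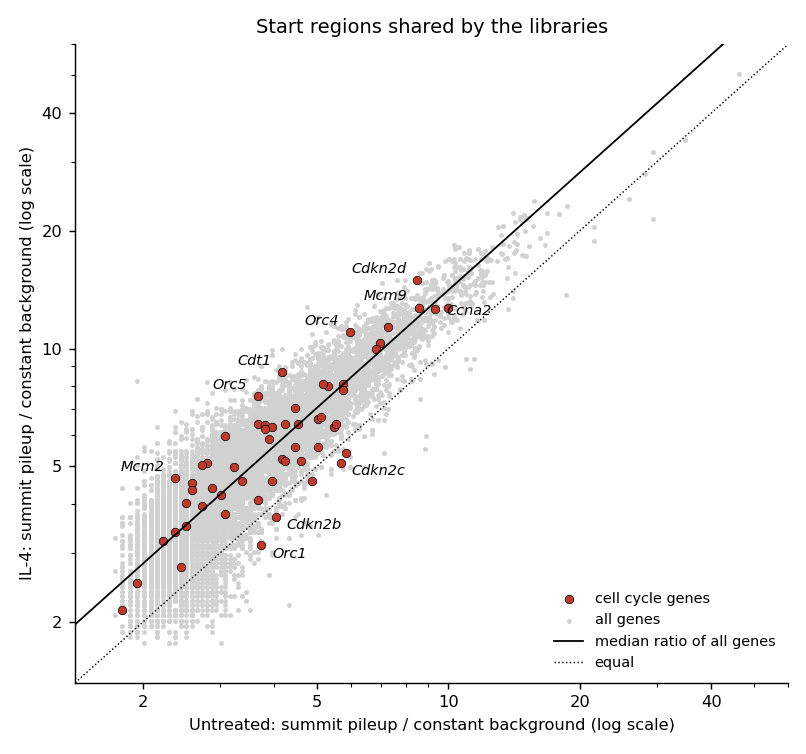
Summit pileup divided by the constant background of its library, in the untreated (x axis, log scale) and IL-4 (y axis, log scale) library, for start regions that overlap, with 57 cell cycle genes in red and 10564 genes in grey. The solid line is the median ratio of all genes, 1.41, and the dotted line is equality; Cdt1 and Orc5 lie above the solid line at 2.09 and 2.06, and Orc1, Cdkn2c and Cdkn2b below the dotted one at 0.843, 0.899 and 0.924.

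Over whole gene bodies with 1 kb on each side, every cell cycle gene held a region in the IL-4 library. This was 72 of 72 genes (100%, 95 to 100), against 83.3% of all genes, and 67 in the untreated library (93.1%, 84.5 to 97.7), against 75.5%. In the IL-4 library alone it was 5 genes (6.94%), namely Ccnb2, Cdc20, Cdk10, Cdk2 and E2f6, against 9.60% of all genes. In the untreated library alone it was 0 genes, against 1.84%. Gene length was close to that of genes in general, with a median of 16.8 kb against 17.2 kb. Regions per 10 kb of gene and flanks had medians of 1.57 in the IL-4 library and 0.864 in the untreated library, against 1.24 and 0.676 over all genes.

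The most regions in the IL-4 library lay over 5 long genes. Cdk6 held 26 in the IL-4 library and 10 in the untreated library, Cdk14 held 24 and 14, Ccnd3 held 16 and 10, Cdk15 held 15 and 7, and the repressor gene E2f7 held 13 and 9. In the untreated library Mcm9, which held 9 in the IL-4 library and 12 there, came second to Cdk14. These 5 genes were 41.9 to 577 kb long, longer than the median gene. Orc5, over 63.9 kb of gene, held its start region alone in each library.

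**Figure D5:**
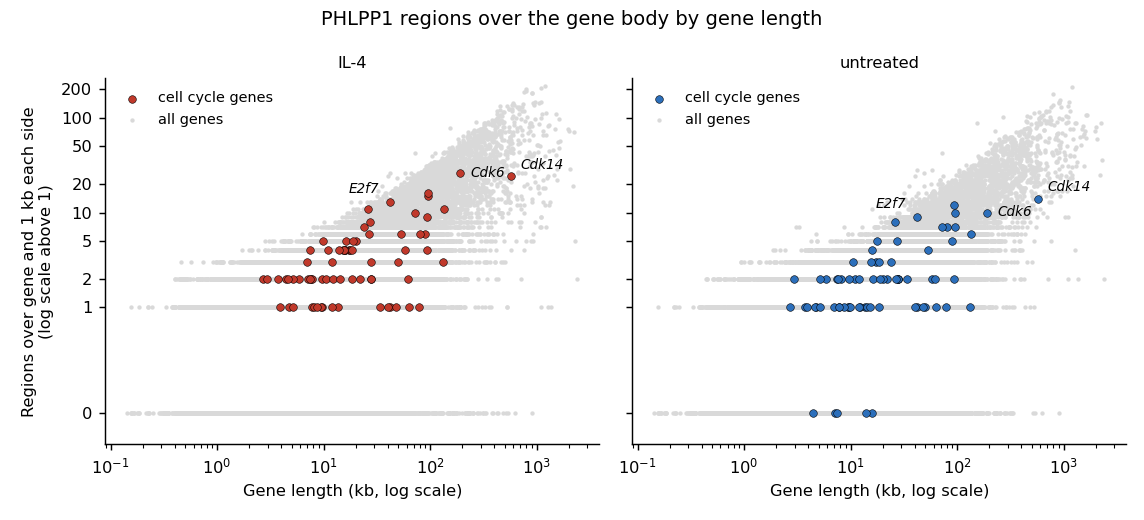
Number of regions over the gene and 1 kb each side (y axis, log scale above 1) against gene length (x axis, kb, log scale) in the IL-4 (left) and untreated (right) library, with cell cycle genes in colour and all genes in grey. Cdk6 and Cdk14 hold the most in the IL-4 library, 26 and 24 (10 and 14 in the untreated library), and 5 cell cycle genes sit at 0 in the untreated library.

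Regions at starts recurred in the other library more often than regions elsewhere in these genes. Of 98 IL-4 regions in start windows of cell cycle genes, 71.4% overlapped an untreated region, and of 79 untreated ones 96.2% overlapped an IL-4 region, against 66.3% and 89.7% over all genes. Away from the starts it was 41.4% of 215 IL-4 regions and 74.4% of 117 untreated regions, against 42.1% and 64.3% over all genes. The regions in start windows of cell cycle genes were also stronger, with median folds of 3.66 (IL-4) and 3.23 (untreated). Away from the starts these were 2.31 and 2.21. The part of fold in the recurrence was not tested.
The strongest region away from a start was inside Cdk8 (chromosome 5, 146260843 to 146261471), with a fold of 25.3 in the IL-4 library and 24.5 in the untreated library, over a local background of 1.81 and 1.78 times the constant one. Regions prone to mapping artefacts were not removed, and whether this region is such a region was not tested. Its fold was well above the start folds of Cdk8, 3.38 and 2.41. Other strong regions away from the start of their gene lay inside Mcm9 (chromosome 10, 53596469 to 53597233, folds of 7.77 and 5.57) and Rbl1 (chromosome 2, 157165429 to 157166453, 7.29 and 5.70). Whether other genes start at these regions was not examined. The Rbl1 region was stronger than the weak start region of that gene and was present in both libraries.

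Other genes of replication and division also had start regions at most members of their lists. Of 36 genes of the replication fork and S phase, 34 had a start region in the IL-4 library (94.4%) and 27 in the untreated library (75%), with median folds of 3.88 and 3.15, against 66.8% and 55.1% of all genes. Of the 7 in the IL-4 library alone, where 14.7% of all genes stood, the strongest were Fen1, a flap nuclease (3.74), Rfc1, a clamp loader subunit (3.62), Tipin, of the fork protection complex (3.08), and Pola1, the catalytic subunit of DNA polymerase alpha (2.91). Prim1, of the primase, and Tk1, thymidine kinase, had none in either library. Of 20 mitosis genes, 19 had a start region in the IL-4 library and 16 in the untreated library, with Top2a (a topoisomerase, 2.37), Aurkb (a mitotic kinase, 2.25) and Espl1 (separase, 2.13) in the IL-4 library alone. The checkpoint kinase Bub1 had one in neither library. Of 11 genes that control cell cycle transcription, 10 and 9 had one, with Lin9 (2.31) covered in the IL-4 library alone and Tfdp2 in neither.

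The labelled cell type was checked at its markers, where a region says nothing of expression. Of 10 alveolar macrophage markers, 9 had a start region in each library, against 66.8% and 55.1% of all genes, and Chil3 had none. Lung epithelium markers had one at 4 of 4 genes in the IL-4 library and 3 in the untreated library, neutrophil markers at 3 and 1 of 3, and endothelium and fibroblast markers at 3 and 1 of 4, without Pecam1. These markers of other cells thus also had more start regions in the IL-4 library, and their part in the results was not tested. Median folds (IL-4, untreated) were 3.32 and 2.41 at macrophage markers and 2.12 and 2.09 at epithelium markers. They were 3.14 and 4.89 at neutrophil markers and 2.36 and 2.30 at endothelium and fibroblast markers. A −log10 q of at least 5 was reached at 8 and 4 macrophage and 2 and 0 epithelium markers. It was reached at 2 and 1 neutrophil and 3 and 0 endothelium and fibroblast markers.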

How the data were processed

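PHLPP1 CUT&Tag was deposited as 1 list of regions for each of 2 libraries, 1 from macrophages given IL-4 and 1 from untreated macrophages. Per the submitters' processing notes, the tools were MACS2 2.2.7.1, Bowtie 0.12.8 and DiffBind and the build was mm10. Their settings and any control library are not given in the sources used here. In both lists the deposited fold is a ratio of summit pileup to the background of the same library and is not scaled between libraries. The deposited −log10 p and −log10 q are against that same background, no −log10 p was below 2.03 in the IL-4 list or 2.00 in the untreated list, and the deposited score repeats the −log10 p.

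Read depth is unknown. Since the caller adds 1 to pileup and background before dividing, fold and p gave both back, and the pileups were whole within 0.05 for 100% of them. The constant part of the background applied to 54.2% of IL-4 regions and 68.7% of untreated regions. The code that recovers pileups and counts overlaps was tested on simulated data.

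Genes came from the RefSeq table of GRCm38.p6 (mm10), and starts and promoters from its promoter table. A gene counted where a region shared at least 1 bp with the window. The strongest start region is the one of highest fold. Cdk3 is listed as a pseudogene there and was not counted, and Cdk11b has a letter after the number.

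The genes, the lists of other cell cycle genes and the markers were chosen with earlier results of these data known. A further marker list is not reported here. Values are given in full for the gene of highest IL-4 start fold in each role group, genes with a start region in 1 library alone or in neither, the 5 highest and 3 lowest pileup ratios, and the 5 genes with most regions. Alternatives covered stricter limits, equal list lengths, other windows and other scalings. Computations used Python 3.11.15, numpy 2.4.6, pandas 2.3.3, scipy 1.17.1 and matplotlib 3.10.9.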

Additional observations from a re-analysis of the deposited data

How the results depend on the processing

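The counts of cell cycle genes with a start region stayed within 1.5 times the reported 71 (IL-4) and 62 (untreated) under every alternative run, except that a fold of at least 3 left 41 in the untreated library. With lists of equal length they were 69 and 62 (95.8% and 86.1%, against 62.1% and 55.1% of all genes). With genes of the start table alone, an alternative chosen after seeing the data, they were 58 and 50 of 59. These were 98.3% and 84.7%, against 66.2% and 55.2% of all genes with a listed start. The count in the IL-4 library alone, 9 at starts, became 16 under a −log10 q limit of 5 and 17 under a fold limit of 3, and its share went above that of all genes (22.2% against 18.4%, and 23.6% against 14.3%). Over gene bodies the 5 genes became 15 and 13 under those limits (20.8% and 18.1%, against 22.6% and 18% of all genes), 9 with no flank (12.5% against 10.7%) and 1 with 5 kb each side (1.39% against 7.55%). The count in the untreated library alone, 0, became 1 at starts with a fold of at least 3 or with 1 kb around either end. This was 1.39% in each case, against 0.343% and 3.06% of all genes. Over bodies it became 1 with a −log10 q of at least 5 or a fold of at least 3 (1.39%, against 0.891% and 1.06%). The stricter limits remove weak regions of both lists, and the causes of these shifts were not tested. Without scaling, the median pileup ratio became 1.64 over cell cycle genes and 1.61 over all genes. With deposited folds it was 1.37 over cell cycle genes and 1.30 over all genes. With an untreated fold of at least 3 it was 1.39 over cell cycle genes and 1.43 over all genes, which reversed the order. No median ratio fell below 1 under any alternative run. No paired analysis was possible because each group held 1 library, and for the same reason no library could be left out. Unknown read depth and fragment lengths limit how far pileups can be compared between the libraries.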
